A study of Mus musculus and Rattus norvegicus with 32 samples.

Results

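The actin isoforms and the genes of the smooth muscle contractile apparatus were examined in hearts and cardiomyocytes with altered METTL5, the enzyme that methylates an adenosine of 18S ribosomal RNA. The members were 6 actin genes (Acta1, Actc1, Acta2, Actg2, Actb and Actg1) and 3 smooth muscle genes (Tagln, Cnn1 and Myh11), taken by gene symbol from each table of gene counts. All 9 were found among the 55487 genes listed for mouse and among the 32883 listed for rat. RNA sequencing covered 32 libraries in 8 groups of 4. The 24 mouse libraries came from C57BL/6 hearts in 6 groups, which were Ctrl and Mettl5-KO at 1 month of age, Ctrl and Mettl5-cKO at 3 months, and Ctrl and Mettl5-cKO after transverse aortic constriction (TAC), which overloads the left ventricle with pressure. The TAC hearts were taken 4 weeks after surgery from mice labelled 3 months old, and sham-operated hearts were not analysed here. The 1-month Mettl5-KO hearts came from a separate knockout line, which the study does not describe as limited to cardiomyocytes. Mettl5-cKO mice carry floxed Mettl5 exons and a Cre driven by the Myh6 (αMHC) promoter, so that the deletion is meant for cardiomyocytes, whereas fibroblasts, vessels and other cells keep the gene. The titles call these samples Mettl5-cKO and their genotype tag reads Mettl5-KO. Controls were littermates whose exact alleles are not given in the sources used here. The 8 rat libraries came from neonatal rat ventricular cardiomyocytes (NRVM) of Sprague Dawley pups at postnatal day 2, pre-plated against fibroblasts. They were infected with adenovirus carrying GFP (AdGFP) or human METTL5 coding sequence (AdMettl5), and both groups received phenylephrine (PE) at 20 µM for 24 h, an adrenergic agonist that drives hypertrophic growth.

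Actins are the monomers of thin filaments. Adult rodent ventricle mainly uses the cardiac isoform from Actc1, while the skeletal isoform from Acta1 is abundant in the fetal heart and in skeletal muscle and is a familiar gene of the hypertrophic response. Acta2 and Actg2 encode the smooth muscle isoforms of vessels and of visceral organs, Acta2 also marks myofibroblasts, and Actb and Actg1 encode the cytoplasmic isoforms of all cells. Tagln (transgelin, SM22) and Cnn1 (calponin) bind actin filaments, and Myh11 is the smooth muscle myosin heavy chain. Many of these genes are classical targets of serum response factor (SRF), which binds the CArG box with myocardin family cofactors.

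The actin genes lie on separate chromosomes but are alike in sequence, which matters for counting. In GRCm38 with the GENCODE M21 annotation, Acta1 lies on chromosome 8 from 123891769 to 123894751, Actc1 on chromosome 2 from 114047282 to 114053548, Acta2 on chromosome 19 from 34241090 to 34255590, Actg2 on chromosome 6 from 83512905 to 83536265, Actb on chromosome 5 from 142903115 to 142906754 and Actg1 on chromosome 11 from 120345690 to 120348542. Tagln lies on chromosome 9 from 45929619 to 45936058, Cnn1 on chromosome 9 from 22099216 to 22109630 and Myh11 on chromosome 16 from 14194535 to 14291372. Only Cnn1 is on the plus strand. The first 30 coding bases of each actin, all in exon 2, are shown because the isoforms differ most visibly at their N-terminus. Capitals mark bases that differ from Acta1 when the whole coding sequences are aligned (GENCODE transcripts, minus strand, 5′ to 3′), and an aligned gap is not marked.
Acta1, chr8:123893668-123893697: atgtgcgacgaagacgagaccaccgctctt
Actc1, chr2:114052002-114052031: atgtgTgacgaCgaGgagaccaccgctTtG
Acta2, chr19:34252524-34252553: atgtgTgaAgaGgaAgaCaGcacAgcCctG
Actg2, chr6:83527412-83527441: atgtgTgaagaAgagaccaccgcCcttgtg
Actb, chr5:142905657-142905686: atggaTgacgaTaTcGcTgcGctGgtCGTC
Actg1, chr11:120348062-120348091: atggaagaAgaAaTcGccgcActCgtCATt

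The coding sequences ran to 1134 bases for Acta1, Actc1 and Acta2, 1131 for Actg2 and 1128 for Actb and Actg1. Identity between pairs ranged from 81.48% for Actg1 with Actc1 and with Acta2 to 88.65% for Actb and Actg1. Exact runs were nevertheless short. Of all 50-base windows of the transcripts, 30 were shared by Actb and Actg1, 28 by Acta1 and Actb, 10 by Acta1 and Actg1 and 7 by Acta2 and Actg1, and none by the other 11 pairs, out of 1284 to 1986 windows per transcript. Processed pseudogenes were not examined. By whole gene span, Acta1 and Gm20388, Actc1 and A530058N18Rik, and Tagln with Pcsk7 and Gm48529 overlap on opposite strands. Actg1 overlaps Gm23419 and Mir6935 on its own strand. The counting was not stated to use strand and overlap of exons was not examined. How far the reads of these genes can be told apart was therefore not tested.

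Promoter sequence was given for 5 of the 9 members (Acta1, Actc1, Acta2, Actg1 and Cnn1) in the RefSeq table of GRCm38.p6. Both strands of the 250 bases before each start were searched for the CArG box. Acta1, Actc1 and Actg1 each held 1 exact box, shown in capitals within 30 bases of promoter because SRF is the factor these genes are best known for.
Acta1, chr8:123894829-123894858, minus strand: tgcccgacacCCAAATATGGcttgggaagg
Actc1, chr2:114052903-114052932, minus strand: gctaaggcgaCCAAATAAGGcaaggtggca
Actg1, chr11:120348566-120348595, minus strand: ggaaagatcgCCATATATGGacatgttctg
The first base of the box lay 73 bases before the start in Acta1, 47 in Actc1 and 90 in Actg1. Acta2 held no exact box but 2 with 1 mismatch, and Cnn1 held neither. An exact box occurred in 1.47% of 32851 promoter windows of the same length, and a box with at most 1 mismatch in 18.6%. A match is a match of letters only.

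The total of counts per library ran from 19899033 to 21804907 in hearts, from 17344430 to 18085339 in AdGFP NRVM and from 14324700 to 14642431 in AdMettl5 NRVM, so that depth and group cannot be told apart in NRVM. No source says that the libraries of a group came from separate animals or cultures. The p-values rest on the spread between these libraries, and a count of hearts below means heart libraries. No pair of libraries agreed within sampling noise. The count of the whole Mettl5 gene did not separate the genotypes. In CPM (counts scaled to library size after TMM normalisation), Mettl5 ran from 4.51 to 5.94 in Ctrl and from 5.26 to 6.71 in Mettl5-KO at 1 month. It ran from 6.87 to 8.12 in Ctrl and from 5.61 to 7.28 in Mettl5-cKO at 3 months, and from 5.62 to 7.14 and from 5.60 to 7.32 after TAC. A whole-gene count does not resolve the floxed exons of Mettl5-cKO, and the altered exons of the Mettl5-KO line are not given in the sources used here. Exon-level counts were not analysed here. In what follows the genotype therefore rests on the labels, and "Mettl5-KO" and "Mettl5-cKO" mean libraries so labelled. In NRVM, rat Mettl5 ran from 16.2 to 18.0 in AdGFP and from 19.1 to 23.0 in AdMettl5. Human METTL5 from the virus was not counted separately, and whether its reads add to the rat values was not tested. The 4 Ctrl hearts at 1 month stood far apart from each other, with TMM factors from 0.796 to 1.25, and results at that age are also given without single libraries.

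In hearts, Actc1 was the most abundant member in all 6 groups, per length as well as per library. On the scale of CPM per kilobase of exon with the 24 hearts scaled together, Actc1 stood at 3648 ± 326 (SD, n = 4) in 3-month Ctrl hearts. Actb (93.4 ± 9.60) and Acta1 (71.9 ± 17.4) came next and their libraries overlapped. Actg1 (33.6 ± 2.90), Acta2 (25.9 ± 4.32), Tagln (7.24 ± 1.60) and Myh11 (2.91 ± 0.702) followed, each without overlap with its neighbours. Cnn1 (0.501 ± 0.132) and Actg2 (0.447 ± 0.0881) were lowest and overlapped. The place of Acta1 in this order differed most between groups. It was the fifth of 9 in both groups at 1 month, at 31.95 ± 33.4 in Ctrl and 23.4 ± 10.7 in Mettl5-KO. There it overlapped with Tagln in both groups and with Acta2 in Ctrl. After TAC it was the second, at 677 ± 153 in Ctrl and 2102 ± 217 in Mettl5-cKO, without overlap with its neighbours. In 3-month Mettl5-cKO hearts it was also the second, at 119 ± 32.4, and overlapped with Actb (82.5 ± 15.2). Actg2 was close to the floor of detection. It was listed at 0 in 7 of the 24 heart libraries and had 13 to 39 counts in the others, so no fold change is given for it in hearts. It became a called gene after TAC without Ctrl library 2, its only Ctrl TAC library at 0 (adjusted p = 0.0452 from edgeR), and within Mettl5-cKO hearts between 3 months and TAC without Ctrl TAC library 2 (0.0435) or Mettl5-cKO library 3 at 3 months (0.00785).

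**Figure D1:**
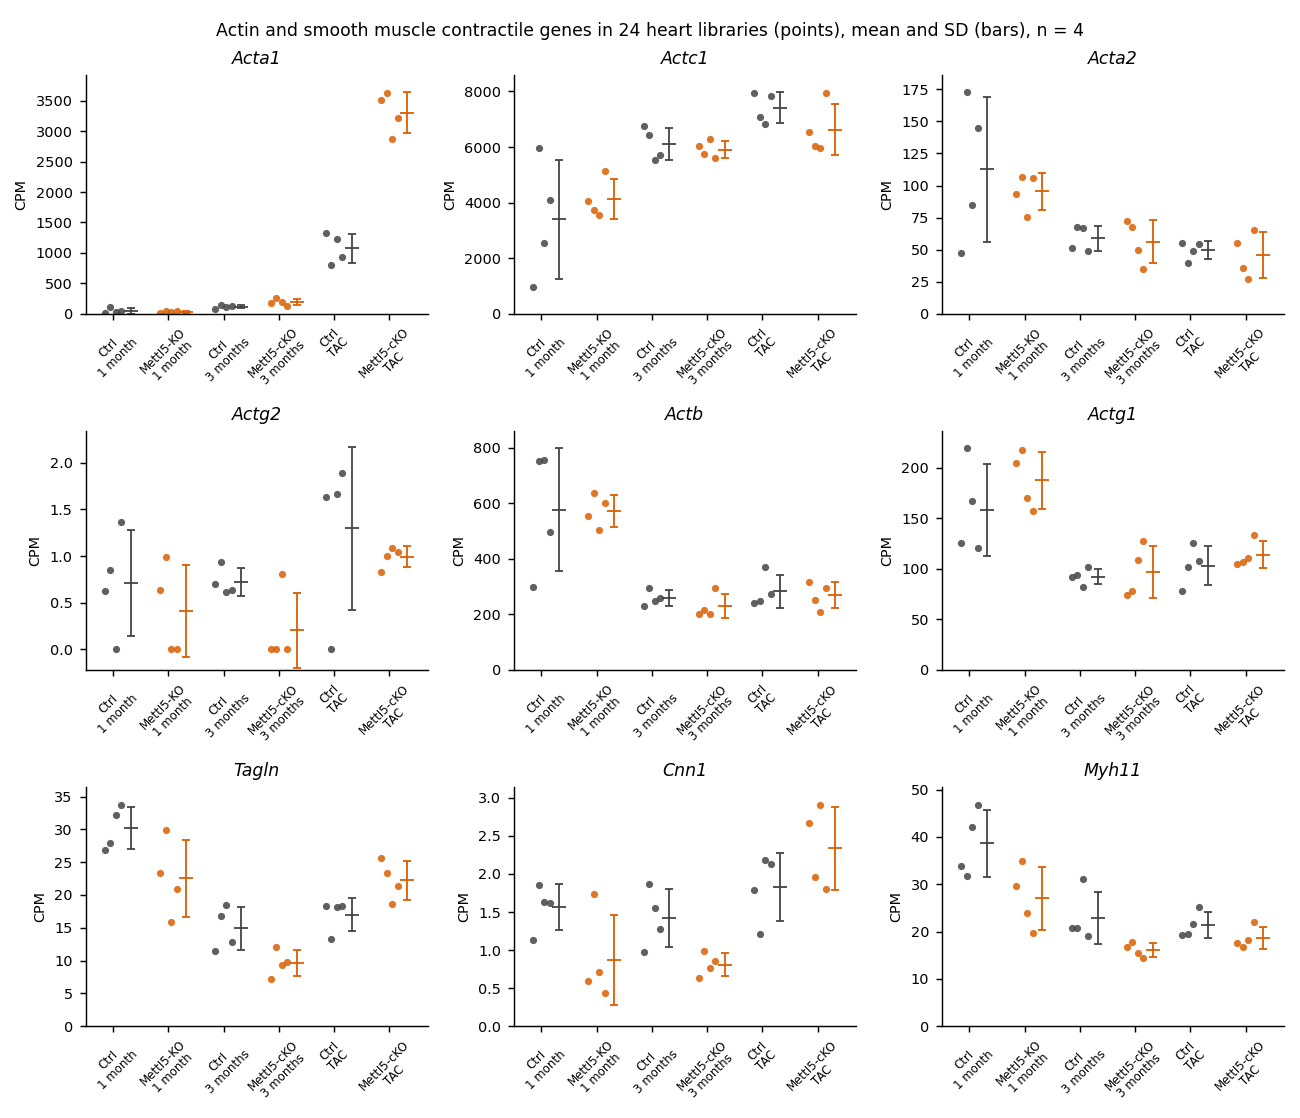
Level of each member (vertical axis, CPM on TMM-scaled library sizes of each table) in the 6 heart groups (horizontal axis), with 1 point per library in grey for Ctrl and in orange for Mettl5-KO or Mettl5-cKO, and a bar for mean and SD beside the points. Acta1 stands at or below 255 CPM in all hearts without TAC, from 808 to 1322 in Ctrl after TAC and from 2869 to 3622 in Mettl5-cKO after TAC.

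At 1 month, none of the 9 members passed an adjusted p of 0.05 between Mettl5-KO and Ctrl hearts (quasi-likelihood test of edgeR, Benjamini-Hochberg over 16329 genes), against 0.00612% of all genes. That is a single gene, and 747 genes had an unadjusted p under 0.05. Actc1 had 963, 5978, 2563 and 4094 CPM in the Ctrl hearts and 4063, 3746, 3553 and 5145 in the Mettl5-KO hearts. The control hearts spanned the whole range of the knockout hearts and more, with the lowest Actc1 value of any heart in library 1 and a value above all knockout hearts in library 2. Acta1 showed the same spread, with 9.84, 115, 21.98 and 36.4 CPM in Ctrl against 13.6, 41.9, 30.9 and 48.2, and its log2 fold change was -0.45, or from -0.79 to 0.57 with single libraries left out. Acta2 stood at 113 ± 56.8 CPM in Ctrl and 95.4 ± 14.5 in Mettl5-KO, Actb at 577 ± 221 and 574 ± 57.9, and Actg1 at 158 ± 45.6 and 188 ± 28.6 (SD, n = 4). The groups overlapped for all 9 members, and groups did not overlap for 3.01% of all genes.

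The 3 smooth muscle genes stood below Ctrl on average in the 1-month Mettl5-KO hearts, without passing the adjusted test. Myh11, the myosin of vessel walls, had 33.9, 31.7, 42.0 and 46.8 CPM in Ctrl and 29.7, 34.9, 23.9 and 19.6 in Mettl5-KO, a log2 fold change of -0.51 (standard error 0.193, unadjusted p = 0.0249 and adjusted p = 0.973 from edgeR). Tagln had 26.9, 28.0, 32.1 and 33.8 CPM in Ctrl and 23.3, 29.96, 15.9 and 20.95 in Mettl5-KO (log2 fold change -0.42, standard error 0.178, unadjusted p = 0.0410 and adjusted p = 0.973 from edgeR). Library 2 of the Mettl5-KO group reached into the Ctrl range for both genes, while the other 3 lay below all controls. Cnn1 was counted only 9 to 39 times per library, at 1.56 ± 0.302 CPM in Ctrl and 0.870 ± 0.591 in Mettl5-KO (SD, n = 4, log2 fold change -0.84, adjusted p = 0.973 from edgeR). The other 12 markers of vascular smooth muscle and pericytes leaned the other way, with 9 of 12 higher in Mettl5-KO, none called and a median log2 fold change of 0.19. Their sums ran from 541 to 949 CPM in Ctrl and from 859.8 to 981 in Mettl5-KO, and their part in the values of the 3 genes was not tested. A list of 17 other smooth muscle contractile genes, which shares some genes with these markers, was split. In it 8 genes stood higher and 9 lower in Mettl5-KO, with none called and a median log2 fold change of -0.04.

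At 3 months, in hearts without surgery, none of the 9 members passed the adjusted test between Mettl5-cKO and Ctrl, where 0.0732% of 16391 genes did (12 genes). At an unadjusted p under 0.05 stood 4 members, as did 7.05% of all genes. Acta1 had 74.6, 135, 117 and 131 CPM in Ctrl and 175, 255, 196 and 131 in Mettl5-cKO. The ranges met at 1 library of Mettl5-cKO, the fourth, and the other 3 lay above all controls (log2 fold change 0.73, standard error 0.227, unadjusted p = 0.00999 and adjusted p = 0.490 from edgeR). Markers of skeletal muscle, the other tissue rich in Acta1, summed to 1.62 to 2.66 CPM in Ctrl and 2.52 to 11.7 in Mettl5-cKO over 10 genes. The 3 of these genes with enough counts to test all stood higher in Mettl5-cKO without passing the test (median log2 fold change 1.25). Atp2a1, the calcium pump of fast fibres, averaged 0.556 CPM in Ctrl and 2.81 in Mettl5-cKO, Tnni2 0.983 and 2.34, and Mylpf 0.513 and 0.965. Of the fast myosins, Myh1 and Myh4 were at 0 in every heart group and Myh2 averaged 0.0861 CPM in Ctrl and 0 in Mettl5-cKO at this age. The part of these markers in the Acta1 values was not tested. Actc1 stood at 6108 ± 572 CPM in Ctrl and 5907 ± 308 in Mettl5-cKO (SD, n = 4), and the groups overlapped. The cytoplasmic actins overlapped too, with Actb at 259 ± 27.6 and 229 ± 43.7 CPM and Actg1 at 92.5 ± 7.82 and 97.1 ± 25.4.

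The smooth muscle genes stood below Ctrl at 3 months in all 4 Mettl5-cKO libraries, measured against the Ctrl mean. Myh11 had 20.8, 20.8, 31.0 and 19.0 CPM in Ctrl and 16.8, 17.8, 15.4 and 14.4 in Mettl5-cKO. It was the only member whose groups did not overlap, as was the case for 4.23% of all genes (log2 fold change -0.51, standard error 0.158, unadjusted p = 0.00962 and adjusted p = 0.485 from edgeR). Without Ctrl library 3, which stood apart at 31.0 CPM, its log2 fold change was -0.33 (adjusted p = 0.601 from edgeR). Tagln had 11.5, 16.8, 18.5 and 12.8 CPM in Ctrl and 7.23, 12.1, 9.26 and 9.76 in Mettl5-cKO, with 1 knockout library above the lowest control (log2 fold change -0.64, adjusted p = 0.459 from edgeR). Cnn1 had 0.979, 1.87, 1.56 and 1.27 CPM in Ctrl and 0.633, 0.984, 0.764 and 0.857 in Mettl5-cKO, from 14 to 38 counts per library and 1 knockout library stood just above the lowest control (log2 fold change -0.81, adjusted p = 0.460 from edgeR). Acta2, the actin of the same cells, did not share these values, with 58.8 ± 10.0 CPM in Ctrl and 56.2 ± 16.9 in Mettl5-cKO (SD, n = 4). Over 12 marker genes of vascular smooth muscle and pericytes other than the members, the summed level ran from 753 to 993 CPM in Ctrl and from 832 to 945 in Mettl5-cKO. None passed the test, and their median log2 fold change was -0.01. A list of 17 other smooth muscle contractile genes, which shares some genes with these markers, leaned lower. In it 4 genes stood higher and 13 lower in Mettl5-cKO, with none called and a median log2 fold change of -0.11. In bulk tissue, fewer cells of a type and less RNA per cell cannot be told apart.

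After TAC, Acta1 rose in Mettl5-cKO hearts relative to Ctrl hearts and was the only member past the adjusted test, where 12.7% of 16340 genes were called. It had 1322, 808, 1235 and 939 CPM in Ctrl and 3509, 3622, 2869 and 3221 in Mettl5-cKO. Every knockout library exceeded every control library, and the ratio of means was 3.07 (log2 fold change 1.62, standard error 0.165, adjusted p = 0.00227 from edgeR). Over the 8 fits that each lacked 1 library, its log2 fold change stayed between 1.51 and 1.74 and the adjusted p between 0.000538 and 0.0135. Skeletal muscle markers summed to 0.989 to 3.49 CPM in Ctrl and 1.91 to 4.34 in Mettl5-cKO. The 6 atrial markers summed to 10.8 to 12.9 CPM in Ctrl and 6.39 to 12.2 in Mettl5-cKO, most of it from Stard10 (9.86 and 5.53 on average) and Myl4 (1.58 and 2.21). Of the others, Myl7 and Bmp10 were at 0 in both TAC groups, Sln was at 0 in Ctrl and 0.0374 CPM in Mettl5-cKO, and Fgf12 was at 0.326 and 0.259. The part of skeletal muscle and atrial cells in the Acta1 values was not tested.

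The cardiac isoform Actc1 had 7951, 7068, 6824 and 7820.2 CPM in Ctrl TAC hearts and 6528, 6053, 5957 and 7949 in Mettl5-cKO TAC hearts. Library 4 of the knockout lay within the control range and the other 3 below it (log2 fold change -0.16, standard error 0.120, adjusted p = 0.390 from edgeR). Markers of cardiomyocytes without the members summed to 28885 to 32979 CPM in Ctrl and 22408 to 28236 in Mettl5-cKO, without overlap, and 1 of 8 was called lower, beside 6.10% of all genes. Actb (284 ± 59.2 and 269 ± 47.7 CPM, Ctrl and Mettl5-cKO, SD, n = 4) and Actg1 (103 ± 19.5 and 114 ± 13.3) overlapped between the groups, as did Acta2 (49.6 ± 7.14 and 45.8 ± 17.7). Actg2 was listed at 0 in 1 Ctrl library and had 19 to 39 counts in the other 7.

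Of the smooth muscle genes, Tagln separated the TAC groups in level without passing the adjusted test. It had 18.2, 13.3, 18.2 and 18.3 CPM in Ctrl and 25.6, 23.3, 18.6 and 21.4 in Mettl5-cKO. The groups did not overlap, although the lowest knockout library lay only just above the highest control, which was the case for 18.6% of all genes (log2 fold change 0.38, standard error 0.132, unadjusted p = 0.0164 and adjusted p = 0.0838 from edgeR). Its adjusted p was 0.0470 with DESeq2's Wald test and 0.0311 on library size alone. Cnn1 (1.83 ± 0.447 and 2.34 ± 0.540 CPM, SD, n = 4, 25 to 72 counts) and Myh11 (21.4 ± 2.75 and 18.7 ± 2.38) overlapped between the groups. Markers of other cells moved with genotype after TAC. The 7 markers of activated fibroblasts, cells that can also express Tagln, Cnn1 and Acta2, summed to 52.7 to 87.1 CPM in Ctrl. In Mettl5-cKO libraries 1 to 4 they summed to 1168, 775, 754 and 128 CPM, so that library 4 stood closest to Ctrl. Of the 6 tested, 5 were called higher. The vascular smooth muscle and pericyte markers summed to 819 to 899.5 and 677 to 821 CPM, with 1 of 12 called higher and 3 lower, beside 6.57% and 6.10% of all genes. Their part in the values of the smooth muscle genes was not tested.

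The composition of the actin pool is the share of each gene in the summed counts of the 6 actins, which does not depend on library scaling. After TAC, Acta1 made up 13.7, 9.78, 14.3 and 10.2% of actin counts in the 4 Ctrl hearts and 33.4, 36.0, 31.3 and 27.6% in the 4 Mettl5-cKO hearts. Actc1 made up 82.4, 85.5, 79.3 and 85.02% in Ctrl and 62.1, 60.1, 64.9 and 68.1% in Mettl5-cKO. Neither share overlapped between genotypes, and the mean differences were 20.0 percentage points for Acta1 and -19.2 for Actc1 (exact permutation test, two-sided, p = 0.0286 for each, the smallest that 4 against 4 allow). Because shares sum to the whole, these differences are not independent of each other. The level of Actc1 in CPM was not called, as given above. The 6 actins together took 0.783 to 0.904% of all counts in Ctrl and 1.049 to 1.104% in Mettl5-cKO. Shares of Acta2, Actg2, Actb and Actg1 overlapped between the TAC groups.

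In the hearts without surgery the shares were closer. At 3 months Acta1 made up 1.04, 1.92, 1.93 and 2.09% in Ctrl and 2.67, 4.02, 2.87 and 2.11% in Mettl5-cKO, which did not overlap but nearly touched (difference 1.17 percentage points, exact permutation test, p = 0.0286). At 1 month the share of Acta2 was 3.27, 2.39, 2.37 and 2.96% in Ctrl and 1.89, 2.24, 1.75 and 1.75% in Mettl5-KO, again without overlap (difference -0.838 percentage points, exact permutation test, p = 0.0286). All 24 shares in the 4 tables were compared and these p-values are not adjusted. The other 5 shares at each of these ages overlapped between genotypes. Actb made up 15.6% ± 6.14 of actin counts in Ctrl hearts at 1 month and 3.92% ± 0.471 in Ctrl hearts at 3 months (SD, n = 4), the libraries of the ages being set side by side without a test.

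**Figure D2:**
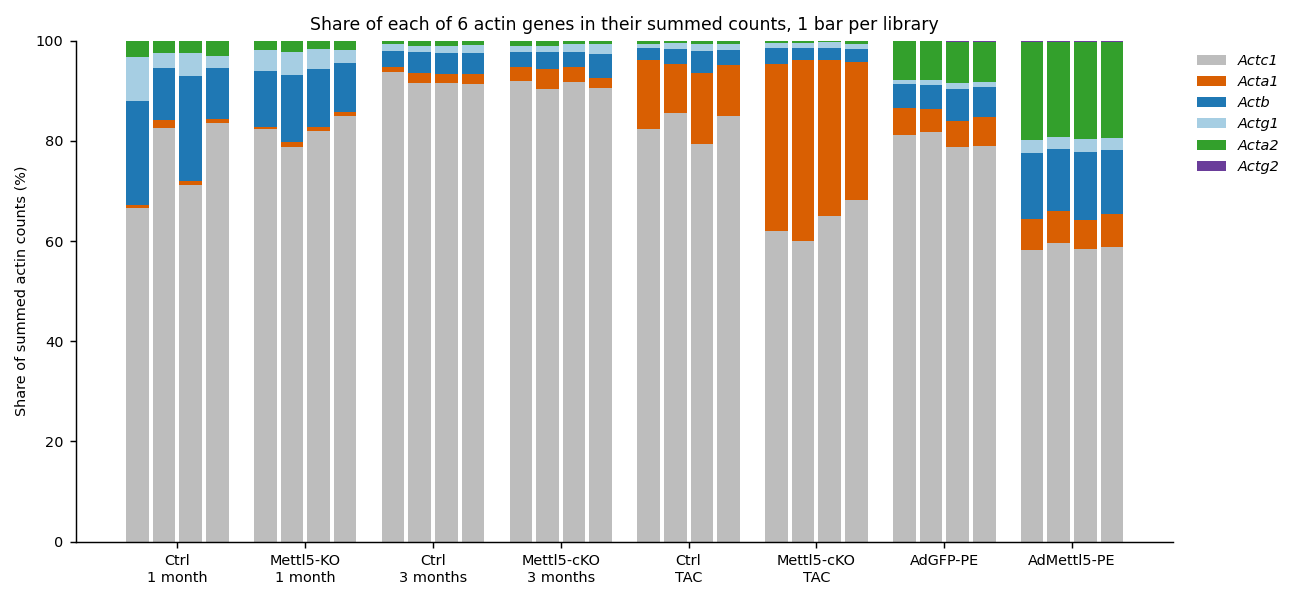
Share of each of 6 actin genes in their summed counts (vertical axis, percent), with 1 stacked bar per library for the 6 heart groups and the 2 NRVM groups (horizontal axis). Actc1 fills most of every bar, Acta1 widens to a mean of 12.01% in Ctrl and 32.1% in Mettl5-cKO hearts after TAC, and Acta2 widens from 7.92% to 19.2% in NRVM with AdMettl5. Actg2 is too small to see.

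TAC and 3-month hearts were also compared within each genotype, in a joint fit of those 16 libraries. These comparisons mix surgery with whatever else differed between the 2 collections, since sham hearts were not analysed here. In Ctrl hearts, Acta1 was the only member called, among 0.516% of 17070 genes (0.340% higher). It stood at 111 ± 26.7 CPM at 3 months and 1041 ± 235 after TAC on the scale of all hearts together (SD, n = 4, ratio of means 9.42), or 3.23 on the log2 scale (standard error 0.232, adjusted p = 5.4e-06 from edgeR). Actc1 did not overlap between these groups but was not called, at 5902 ± 528 and 7171 ± 530.5 CPM (log2 fold change 0.28, adjusted p = 0.165 from edgeR).

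In Mettl5-cKO hearts the same contrast called 3 of 9 members higher and none lower, against 10.2% of genes called higher and 8.89% lower. Acta1 went from 182 ± 49.8 to 3229 ± 334 CPM (SD, n = 4, ratio of means 17.7), or 4.14 on the log2 scale (standard error 0.241, adjusted p = 1.29e-07 from edgeR). Tagln went from 9.24 ± 1.89 to 21.7 ± 2.99 CPM, or 1.23 on the log2 scale (standard error 0.175, adjusted p = 0.000307 from edgeR). Cnn1 went from 0.781 ± 0.139 to 2.28 ± 0.535 CPM, or 1.55 on the log2 scale (standard error 0.245, adjusted p = 0.000645 from edgeR). None of the 3 overlapped between the Mettl5-cKO groups. Fibroblast markers moved with this contrast. On the scale of each table, the activated fibroblast markers summed to 27.3 to 43.4 CPM at 3 months and 128 to 1168 after TAC. Library 4 after TAC was the lowest of its group, at 128. Of the 6 tested, 5 were called higher. The fibroblast markers summed to 541 to 790.2 and 884 to 2253 CPM, with 6 of 8 called higher. The part of both marker lists in the Tagln and Cnn1 values was not tested. In Ctrl hearts, Tagln (14.4 ± 3.18 and 16.5 ± 2.43 CPM) and Cnn1 (1.37 ± 0.363 and 1.77 ± 0.435) overlapped between 3 months and TAC.

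Whether the effect of genotype differed between TAC and 3 months was tested by an interaction term, and no member passed the adjusted test, nor did more than 0.00586% of 17070 genes (1 gene, with 2011 at an unadjusted p under 0.05). The difference was 1.03 for Tagln (log2, standard error 0.244, unadjusted p = 0.000661 and adjusted p = 0.128 from edgeR), 1.18 for Cnn1 (standard error 0.341, adjusted p = 0.184) and 0.91 for Acta1 (standard error 0.301, adjusted p = 0.246). With DESeq2 the Tagln difference passed, at an adjusted p of 0.0124, among 231 genes called. It also passed in edgeR without Mettl5-cKO TAC library 4, at 0.0386. The median over the 9 members was 0.33 and over all genes 0.00.

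**Figure D3:**
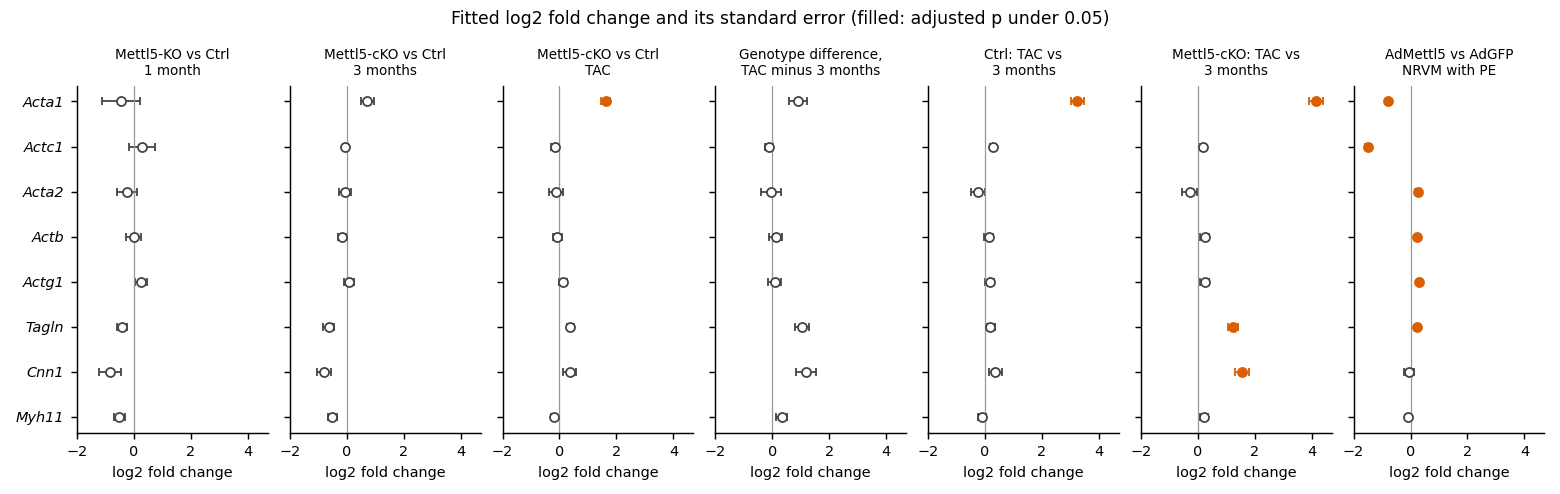
Fitted log2 fold change (horizontal axis) of 8 members (vertical axis) in 7 comparisons, with the standard error as bars and filled orange points where the adjusted p was under 0.05. Actg2 is left out because it is near 0 in hearts. Acta1 alone is filled after TAC (1.62), and Actc1 and Acta1 lie on the negative side in NRVM with AdMettl5 (-1.49 and -0.79).

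In NRVM under PE, both sarcomeric actins fell with AdMettl5. Here the test called 7 of 9 members, beside 52.8% of 15041 genes, so a call alone sets a gene apart little, and only Actc1 also passed an absolute log2 fold change of 1, as did 5.85% of genes. Actc1 had 20954, 21339, 15408 and 15835 CPM with AdGFP and 6645, 7075, 6245 and 6297 with AdMettl5. The AdGFP libraries fell into a higher and a lower pair, and both lay far above all AdMettl5 libraries (log2 fold change -1.49, standard error 0.109, adjusted p = 4.95e-07 from edgeR). Acta1 had 1345, 1242, 1035 and 1186 CPM with AdGFP and 689, 756, 620.2 and 713 with AdMettl5, without overlap (log2 fold change -0.79, standard error 0.0811, adjusted p = 7.43e-06 from edgeR). The 8 other cardiomyocyte markers were all called lower, with a median log2 fold change of -1.17, and summed to 17073 to 19676 CPM with AdGFP and 7821 to 8576 with AdMettl5. The part of cell composition in the actin values was not tested.

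The cytoplasmic actins rose by a small and uniform amount. Actb had 1249, 1239, 1232 and 1184 CPM with AdGFP and 1520.1, 1459, 1430.2 and 1362 with AdMettl5 (log2 fold change 0.23, standard error 0.0488, adjusted p = 0.00154 from edgeR). Actg1 had 229, 244, 229 and 224 CPM with AdGFP and 292, 294, 280.3 and 269 with AdMettl5 (log2 fold change 0.29, standard error 0.0467, adjusted p = 0.000221 from edgeR). The groups did not overlap for either gene. On library size alone the median gene moved up by 0.13 on the log2 scale, and the changes of both genes are relative to TMM scaling.

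The smooth muscle actins moved in opposite directions. Acta2, the second most counted member here, had 1967, 2024, 1625 and 1604 CPM with AdGFP and 2225, 2242, 2072 and 2049 with AdMettl5, with the groups close together but apart (log2 fold change 0.25, standard error 0.0795, adjusted p = 0.0190 from edgeR). The call was lost without AdGFP library 3 or 4 or AdMettl5 library 1 or 2, at adjusted p from 0.0527 to 0.0569. Actg2 had 37.3, 35.9, 30.1 and 31.1 CPM with AdGFP and 29.2, 28.1, 28.6 and 28.1 with AdMettl5 (log2 fold change -0.24, standard error 0.0724, adjusted p = 0.0156 from edgeR), and on library size alone it was -0.10 with an adjusted p of 0.205.

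Among the smooth muscle genes of NRVM, Tagln rose and Cnn1 and Myh11 did not pass the test. Tagln had 912, 893, 756 and 735 CPM with AdGFP and 1032, 1025, 976 and 857 with AdMettl5, with 1 AdMettl5 library among the controls (log2 fold change 0.24, standard error 0.0819, adjusted p = 0.0270 from edgeR). Its call was lost without AdGFP library 3 or 4 or AdMettl5 library 1, 2 or 3, at adjusted p from 0.0600 to 0.0810, and without a filter on low counts, at 0.0578. Cnn1 had 422, 417, 283 and 279 CPM with AdGFP and 378, 387, 347 and 237 with AdMettl5, and the AdGFP libraries showed the same pairs as for Actc1. Myh11 had 61.0, 59.1, 61.6 and 58.5 CPM with AdGFP and 54.8, 52.1, 54.4 and 61.9 with AdMettl5, where library 4 stood above all controls and the other 3 below them (adjusted p = 0.138 from edgeR, and 0.0158 without AdMettl5 library 4). Other smooth muscle and pericyte markers summed to 1283 to 1432 CPM with AdGFP and 1269 to 1374 with AdMettl5. Fibroblast markers summed to 10713 to 11269.8 and 8556 to 9443 CPM, and 6 of 7 were called lower, beside 25.7% of all genes.

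**Figure D4:**
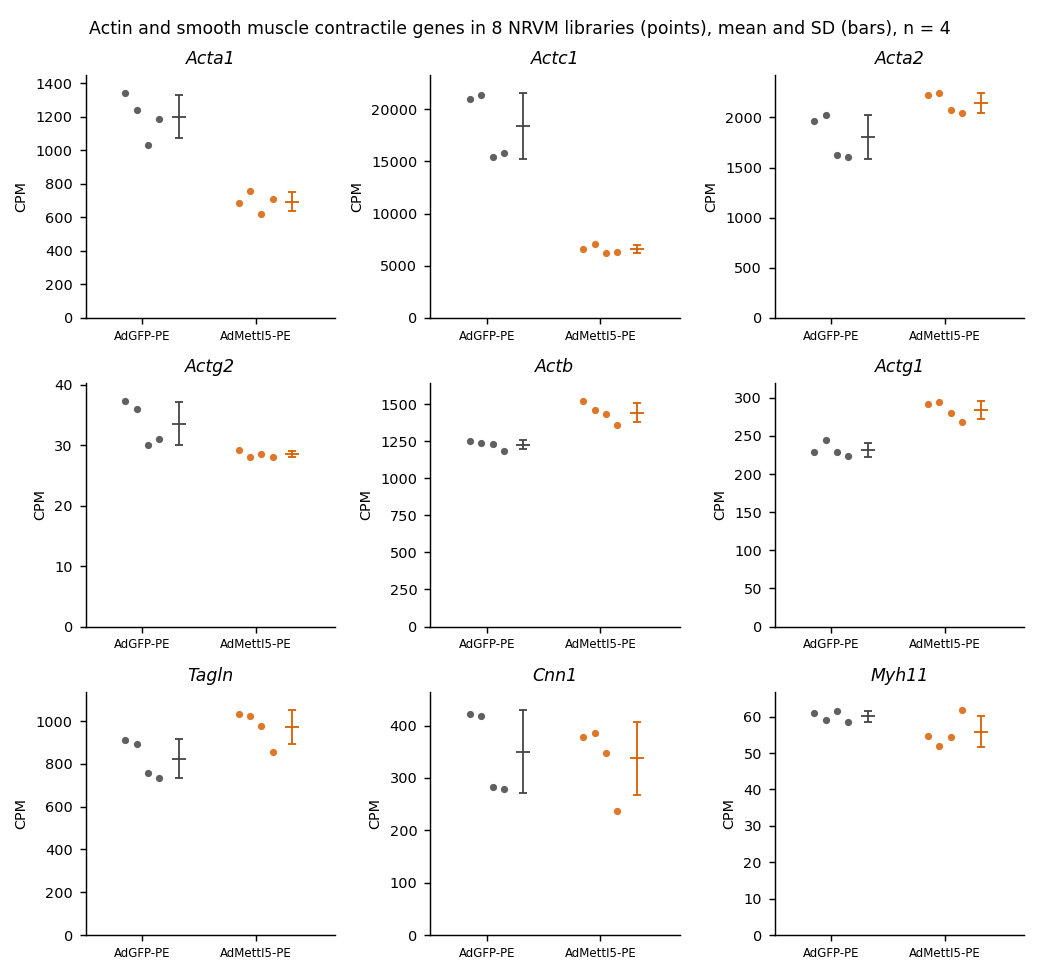
Level of each member (vertical axis, CPM after TMM normalisation) in the AdGFP-PE and AdMettl5-PE groups of NRVM (horizontal axis), with 1 point per library and a bar for mean and SD beside the points. Actc1 and Acta1 separate widely (18384 and 6566 CPM, and 1202 and 694 CPM on average), whereas Tagln, Cnn1 and Myh11 overlap.

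In CPM, 6 of the 9 members did not overlap between the NRVM groups, nor did 48.4% of all genes. The actin pool shifted in every library. Actc1 made up 81.3, 81.7, 78.8 and 78.9% of actin counts with AdGFP and 58.3, 59.7, 58.5 and 58.8% with AdMettl5. Acta2 made up 7.63, 7.75, 8.31 and 7.997% with AdGFP and 19.5, 18.9, 19.4 and 19.1% with AdMettl5, and Actb 4.85, 4.74, 6.30 and 5.90% against 13.3, 12.3, 13.4 and 12.7%. Actg1 went from a mean of 1.03% to 2.54% and Actg2 from 0.148% to 0.256%. None of these 5 shares overlapped between the groups (exact permutation test, two-sided, p = 0.0286 for each). Acta1 took 5.29% ± 0.474 with AdGFP and 6.22% ± 0.369 with AdMettl5 (SD, n = 4), which overlapped (exact permutation test, p = 0.0571). The summed actins fell from 1.93 to 2.41% of all counts to 1.12 to 1.22%, and since shares sum to the whole, those of the less reduced genes rise as Actc1 falls.

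Other genes that build, bind and modify actin were read from 6 lists. At 1 and at 3 months, none of their 96 and 95 tested genes passed the test. After TAC, 14 of 96 were called higher and 5 lower in Mettl5-cKO, beside 6.57% and 6.10% of all genes. In the smooth muscle contractile list 2 of 17 were called higher and 3 lower (median log2 fold change 0.00, all genes 0.00). Csrp2, a LIM protein of smooth muscle, rose (0.89, standard error 0.182, adjusted p = 0.0182), while Kcnmb1, the β subunit of the large-conductance calcium-activated potassium channel of smooth muscle, fell by 0.68 and smoothelin (Smtn) by 0.47. In the SRF list, 1 of 10 was called, Fhl1, a LIM protein of muscle (1.007, adjusted p = 0.0191), and Srf itself had a log2 fold change of 0.35 (adjusted p = 0.0670 from edgeR). Of 21 genes that bind, sever or cap actin, 3 were called higher and none lower (median 0.20), which were cofilin 2 (Cfl2, 0.51), destrin (Dstn, 0.39) and the cofilin cofactor Wdr1 (0.37). Of 20 nucleation genes, Arpc2 of the Arp2/3 complex rose (0.37) and the formin Fhod1 fell by 0.69. Of 14 crosslinking genes 4 were called higher and 1 lower, with Zyx (0.61), Actn1 (0.57) and talin (Tln1, 0.38) leading. Of 14 genes of actin maturation and modification 3 were called higher, which were the actin-oxidising Mical2 (0.72) and Mical1 (0.60) and the chaperonin subunit Cct8 (0.31).

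Within Mettl5-cKO hearts, TAC against 3 months called 35 of the 96 list genes higher and 4 lower, beside 10.2% of all genes higher and 8.89% lower. In Ctrl hearts none of the 96 was called, where 0.516% of all genes were. The higher ones included 12 of 21 genes that bind, sever or cap actin (median 0.33, all genes -0.01), with Twf2 at 0.82, and 6 of 20 nucleation genes, with Arpc1b at 0.58, Arpc3 at 0.56 and Arpc2 at 0.53. In the smooth muscle list 6 of 17 were called higher, led by Csrp2 (1.48) and Tpm2, a tropomyosin (0.99), and Smtn fell by 0.61. The difference between these contrasts is the interaction above, in which none of the 96 list genes passed the adjusted test.

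In NRVM, 26 of the 93 list genes tested were called higher and 29 lower, beside 27.1% of all genes called higher and 25.7% lower. Of 17 smooth muscle genes 3 were called higher and 8 lower (median -0.13), with Synpo2 (-0.61) and Csrp1 (-0.58) lower and Csrp2 higher (0.38). Of 9 genes in the SRF list 1 was called higher and 4 lower (median -0.15), with Fhl1 (-0.86), Srf (-0.46) and Fhl2 (-0.41). Of 20 binding, severing and capping genes 7 were called higher and 6 lower (median 0.07), with the pointed-end proteins Tmod1 (-1.32) and Lmod2 (-0.86) lower. Of 19 nucleation genes 8 were called higher and 2 lower (median 0.08), and of the formins Fhod1 rose (0.48) and Fhod3 fell (-0.55). Of 14 crosslinking genes 1 was called higher, Pls3 (0.49), and 7 lower, with Pdlim5 (-0.58) and Vcl (-0.55), and the median was -0.19. Of 14 genes of maturation and modification 6 were called higher, with the chaperonin subunit Cct6a (0.29), and 2 lower, Mical2 (-0.70) and Mical3 (-0.64), and the median was 0.05.

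**Figure D5:**
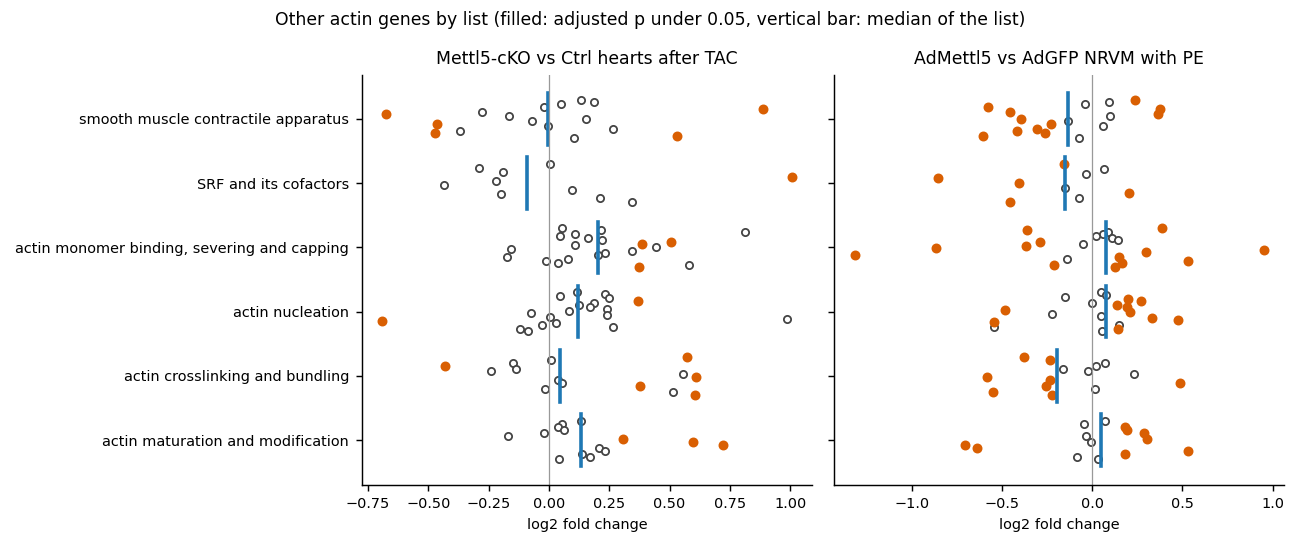
Fitted log2 fold change (horizontal axis) of the genes of 6 actin lists (vertical axis) for Mettl5-cKO against Ctrl hearts after TAC and for AdMettl5 against AdGFP NRVM, with 1 point per gene, filled where the adjusted p was under 0.05, and a vertical bar at the median of the list. In NRVM the filled points spread to both sides, from -1.32 (Tmod1) upwards.

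Across the 24 heart libraries, deviations from the group mean were compared for 7 pairs of members (log2 CPM). Tagln and Cnn1 had Pearson's r = 0.630 (permutation p = 0.0101, adjusted 0.0706) and Spearman's rho = 0.610 (permutation p = 0.00745, adjusted 0.0521). Tagln and Myh11 had r = 0.533 (permutation p = 0.0293, adjusted 0.0867) and rho = 0.494 (permutation p = 0.0329, adjusted 0.115). Without the 2 libraries farthest in Tagln the values of r were 0.661 and 0.598. Acta1 and Actc1 had r = 0.760 (permutation p = 0.0495, adjusted 0.0867) and rho = 0.355 (permutation p = 0.170, adjusted 0.238). This relation rested on Ctrl libraries 1 and 2 at 1 month, without which r was 0.217. The pairs of Acta2 with Tagln, Cnn1 and Myh11 and that of Cnn1 with Myh11 had r from 0.220 to 0.459, and no pair passed after adjustment over the 7.

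By the same deviations, the genes most like Acta1 among 14487 were Gm17228 (r = 0.914), Srm (0.895), Hnrnpab (0.876), Mest (0.870) and Hspb6 (0.866). Those most like Myh11 were Csad (0.843), Tmem63a (0.792), Gucy1a1 (0.787), Myl9 (0.775) and Pitpnm3 (0.774). Gucy1a1, a subunit of the nitric oxide receptor, and Myl9, the regulatory light chain, are smooth muscle genes. Libraries, their depth and their scaling are shared by all genes in such a ranking, and for Acta1 the widest deviations were those of the same 2 Ctrl libraries at 1 month.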

How the data were processed

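RNA sequencing of 24 mouse heart libraries and 8 NRVM libraries was taken from 4 deposited tables of gene counts. The authors made them with HISAT2 2.0.4 and StringTie 2.1.4, per the submitters' processing notes, which also name DESeq2 1.4.5 and the builds GRCm38 and Rnor_6.0. The values are expected counts as the authors deposited them and were rounded to whole numbers. In the 3-month, TAC and NRVM tables the columns name the group but not the sample, so library numbers there are only names. How such counting splits reads shared by actin genes is not stated. Each table was fitted alone with edgeR 4.0.16 (R 4.3.3, quasi-likelihood test, TMM scaling, filterByExpr with a minimum count of 10 and a total of 15), and TAC and 3-month hearts also jointly (16 libraries, 4 groups). The Benjamini-Hochberg adjustment ran over all genes tested, with a threshold of 0.05. Shares of actin counts were compared by exact permutation tests, and correlations by 100000 resamples within groups. The fits were also run on simulated data with a common dispersion for all genes and large changes planted in 200 well-counted genes. All 200 were recovered in each table, with 2 to 13 false calls. That run does not bear on smaller changes or on spread that differs between genes. Alternatives were DESeq2 1.42.0, other scalings and filters, shares per length or among the muscle actins alone, and each library left out. The members and lists were chosen with earlier results of these data known. Named list genes are up to 3 per list and comparison with the smallest adjusted p, described as changed only when under 0.05. Totals of 14324700 to 21804907 counts per library make counting error small except for Actg2 and Cnn1 in hearts.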

Additional observations from a re-analysis of the deposited data

Results flagged for a closer look

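In 11 of 120 groups of 4 libraries, 1 library stood apart from the other 3 by more than Dixon's critical gap at the 95% level. Chance alone passes that gap in about 1 of 20 groups if these are independent and normally spread. Here CPM and shares come from the same counts and some Actg2 values are 0, so the number flagged cannot be read against that rate. For Myh11, Ctrl library 3 at 3 months had 31.0 CPM and the others 19.0 to 20.8. For Tagln, Ctrl library 2 after TAC had 13.3 CPM and the others 18.2 to 18.3. For Actb, Mettl5-cKO library 4 at 3 months had 293.9 CPM and the others 202 to 218. Actg2 was listed at 0 in Ctrl library 2 after TAC (1.64 to 1.89 CPM in the others), and had 0.809 CPM in Mettl5-cKO library 3 at 3 months (0 in the others).

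Among the shares of actin counts, 1.59% was Acta1 in Ctrl library 2 at 1 month (0.611 to 0.744% in the others). In Ctrl library 1 at 3 months, Acta1 took 1.04% (1.92 to 2.09% in the others), Actb 3.22% (4.09 to 4.22%) and Actc1 93.7% (91.3 to 91.5%). Actg2 took 0.0133% in Ctrl library 2 at 3 months (0.00973 to 0.0102% in the others) and 0.0118% in Mettl5-cKO library 3 (0 in the others).

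The effect of genotype differed between TAC and 3 months at an unadjusted p under 0.05, but not after adjustment, for Acta1 (0.91 on the log2 scale, adjusted p = 0.246 from edgeR), Cnn1 (1.18, adjusted p = 0.184) and Tagln (1.03, adjusted p = 0.128).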

How the results depend on the processing

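Cnn1 and Actg2 in hearts rest on few counts, groups have 4 libraries, and the spread of the 1-month Ctrl hearts limits what that age can show. Genes called with DESeq2 numbered 13 at 1 month, 108 at 3 months, 231 for the interaction and 519 for Ctrl TAC against 3 months. DESeq2 called 2 members after TAC, among 2719 of 30040 genes, and 1 member in the interaction. On library size alone, 0 genes were called at 1 month, 0 in the interaction and 47 for Ctrl TAC against 3 months, and 2 members after TAC. Calls after TAC then split into 2060 higher and 524 lower (1074 and 997 with TMM) and in NRVM into 5872 and 2343 (4082 and 3867). Without a filter on low counts the numbers were 1 at 3 months, 1052 after TAC, 0 in the interaction and 21 for Ctrl TAC against 3 months. With an absolute log2 fold change above 1 also required they were 474 after TAC, 880 in NRVM with 1 member, 0 in the interaction, 27 for Ctrl TAC and 826 for Mettl5-cKO TAC against 3 months.

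Some signs turned. On library size alone, log2 fold changes became 0.090 for Actb at 1 month, 0.0058 for Actc1 at 3 months, 0.0013 for Acta2 and 0.058 for Actb after TAC, 0.0030 for Acta2 in the interaction, and 0.084 for Cnn1 and 0.030 for Myh11 in NRVM. Actb at 1 month was 0.013 without a filter. Among the 4 muscle actins alone, the share of Actc1 at 1 month rose by 1.58 percentage points and that of Acta1 in NRVM by 1.69 (exact permutation test, p = 0.0286 for both). Without the 2 farthest libraries r was 0.145 for Cnn1 and Myh11 and 0.217 for Acta1 and Actc1.

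With each library left out, genes called ranged from 0 to 2 at 1 month, 2 to 9 at 3 months, 479 to 3899 after TAC (without Ctrl library 4 and Mettl5-cKO library 4), 0 to 679 in the interaction (679 without Mettl5-cKO TAC library 4), 11 to 223 for Ctrl TAC and 2076 to 3873 for Mettl5-cKO TAC against 3 months. In NRVM they ranged from 7089 of 15280 tested (without AdMettl5 library 3) to 7725 of 15258 (without AdMettl5 library 4). Members called ranged from 1 to 2 after TAC, 0 to 1 in the interaction, 5 to 8 in NRVM and 3 to 4 for Mettl5-cKO TAC against 3 months. Log2 fold changes that changed sign ranged, at 1 month, from -0.79 to 0.57 for Acta1, -0.49 to 0.048 for Acta2, -0.22 to 0.15 for Actb and -0.027 to 0.70 for Actc1. At 3 months they ranged from -0.21 to 0.10 for Acta2, -0.093 to 0.0025 for Actc1 and -0.090 to 0.17 for Actg1, and after TAC from -0.33 to 0.075 for Acta2 and -0.16 to 0.087 for Actb. For Ctrl TAC against 3 months the ranges were -0.027 to 0.21 for Actb and -0.19 to 0.081 for Myh11, in the interaction -0.27 to 0.14 for Acta2 and -0.038 to 0.24 for Actg1, and in NRVM -0.15 to 0.081 for Cnn1. The cause of these differences was not tested.

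At 1 month the labels give replicate numbers, but same-numbered libraries deviated together with correlations of only -0.107 to 0.239, so the numbers were not taken to pair them. With the number as a replicate block 1 gene was called, as without it, and Actb turned to 0.082. No paired analysis was possible because the columns of the other tables carry no replicate numbers of the labels.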

Other observations

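Marker lists of other cell types moved with genotype after TAC, where 6.57% of all genes were called higher and 6.10% lower. Of 8 fibroblast markers 6 were called higher in Mettl5-cKO and none lower (median log2 fold change 0.81), of 6 endothelial markers 5 were called lower and none higher (-0.52), and of 6 macrophage markers 2 were called higher and none lower (0.39), by edgeR's test over all genes. At 3 months none of these markers was called, and the medians were 0.51, -0.43 and 0.39. In NRVM, 1 of 7 activated fibroblast markers was called higher and 6 lower (-0.56), beside 27.1% and 25.7% of all genes.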
